A study of Mus musculus with 14 samples.

Results

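The 80 genes described here code for the proteins of the cytosolic ribosome: 49 for the large subunit and 31 for the small subunit. They were taken by symbol from the array's gene names (Rpl or Rps with a number and at most one letter a, x or l, and Rplp0, Rplp1, Rplp2 and Rpsa), out of 36413 gene names in all. Of these 80, 78 were tested, out of 25896 tested genes. The other two, Rpl3l and Rpl10l, were not well above background in any group. The study asked how the Hsf1 genotype of fibroblasts bears on gene expression when cancer cells and fibroblasts share a dish. Total RNA was labelled with Cy3 and hybridised to 14 Agilent mouse arrays, 2 for each of 7 groups, all kept for 72 hours. The tumor cells were D2A1, a mouse breast cancer line, sorted from culture with Hsf1 null MEFs, sorted from culture with wild type (WT) MEFs, or grown alone. MEFs are mouse embryonic fibroblasts. They were Hsf1 null sorted from culture with D2A1 cells, Hsf1 null grown alone, WT sorted from culture with D2A1 cells, or WT grown alone. MEFs that served as partners for the profiled tumor cells had first received mitomycin C, which blocks division, at 10 µg/ml for 2 hours, so both partner groups of tumor cells share this treatment and tumor cells alone lack it. All cells grew in DMEM with serum, and cell sorting parted the mixed cultures. The labels give the line as D2A1 and the MEF genotype as WT or Hsf1 -/-, and do not say whether the 2 samples of a group were separate cultures, so p-values here reflect the scatter of these samples alone, which may be technical.

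A ribosome has a small subunit that reads the mRNA and a large subunit that joins the amino acids, and each contains ribosomal RNA and a fixed set of proteins, mostly present in a single copy. Their mRNAs are abundant in every growing cell, and many begin with a run of pyrimidines, the TOP tract, through which mTOR and Larp1 control how strongly they are translated. A few ribosomal protein genes have a close relative with restricted expression. Rpl39l, the relative of Rpl39, and Rpl10l, the relative of Rpl10, are known from the testis, and Rpl3l, the relative of Rpl3, is known from striated muscle. Hsf1 codes for the main transcription factor of the heat shock response.

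The results below turn on a few probes, whose sequences are shown first because several members have near relatives or disagreeing probes. Each is read 5′ to 3′ from the array annotation in the scanner files, whose coordinates are of mouse build mm9, and each is 30 bases of a 60-base probe except for Rps15, which is whole. The probe of Rpl39l, at chr16:10174657-10174716 on the plus strand, comes first because Rpl39l and Rpl39 are relatives. The 2 probes of Rpl39 shown lie at chrX:34622696-34623990 and chrX:34622618-34622677 on the minus strand. The longest run that the whole Rpl39l probe shares with any Rpl39 probe was 7 bases, with A_66_P126080, which is not shown. Probes were compared with probes only, so whether a probe also matches the mRNA of the other gene was not tested. The 2 Rpl36a probes, at chrX:131122540-131122599 and chrX:131122535-131122594 on the plus strand, cover nearly the same stretch and differ at 2 of 55 aligned bases, which stand in capitals (G20T and C35A, the first probe's base, its position from 1 at the 5′ end of that probe, and the second probe's base). The 2 Rps15 probes lie at chr10:79755554-79756394 and chr10:79756716-79756775 on the plus strand. The 3 Rpl23 probes, shown because they disagreed between genotypes, lie at chr11:97638917-97638976, chr11:97639579-97639638 and chr11:97639350-97639409 on the minus strand. The only Rps4x probe is shown because the annotation places it at chr3:112105991-112106050, while the RefSeq gene lies on the X chromosome.
Rpl39l A_55_P1969392: ctgtgctttagtgagttcattcagcagttc
Rpl39 A_55_P2182106: aacaaaatcaggtacaactctaagagaaga
Rpl39 A_55_P1957291: gactgaggatttatactgaattgtcatcaa
Rpl36a A_55_P2019019: cagttgttcGtttgggagggaataCattaa
Rpl36a A_55_P1956707: cagttgttcTtttgggagggaataAattaa
Rps15 A_66_P124555: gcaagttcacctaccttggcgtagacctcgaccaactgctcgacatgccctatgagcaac
Rps15 A_55_P2037524: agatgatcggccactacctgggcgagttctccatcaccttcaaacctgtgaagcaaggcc
Rpl23 A_51_P108190: acaaaacacgcattcttttcaggtctttgc
Rpl23 A_55_P1961235: tgtttctttactttgaagataacgcagggg
Rpl23 A_55_P2029344: gcagcattgcatgattctccagtgtatttg
Rps4x A_55_P1960764: atggatctctcttccctgagaaaaaggaat

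All values below are the authors' log2 values, one per gene name and array, and differences are log2 differences between group means ± the SE of the limma fit, with n = 2 arrays on each side. A gene passed when its p, adjusted by Benjamini-Hochberg over all 25896 tested genes, was under 0.05. Where the arrays of a gene that passed are said not to overlap or to stand apart, this describes the values alone. Such separation is nearly given with 2 arrays on each side and adds no support. Hsf1 itself was at 10.52 and 10.67 in co-cultured null MEFs and 10.07 and 9.97 in null MEFs alone, against 12.05 and 12.04 in co-cultured WT MEFs and 12.01 and 11.69 in WT MEFs alone. All 4 null arrays were below all 4 WT arrays, with differences of -1.83 ± 0.12 alone (adjusted p = 1.12e-06, limma) and -1.45 ± 0.12 in co-culture (adjusted p = 1.02e-05). Whether the probe lies in the deleted stretch was not checked. Between 38.5% and 63.4% of spots were well above background per array. On slide A, the scanner file of tumor cells with null MEFs carried outlier flags on 36.8% of spots and that of tumor cells alone on 32.1%, against 0.246% to 5.74% on the other 12 arrays, so the value table was the main source and 69 calls were also made without these arrays, where 52 held. All A samples lay on one slide and all B samples on the other. Linear sums over 3 marker lists were higher in co-cultured MEFs than in MEFs alone. For the epithelial list the log2 of the sum was 14.77 to 15.33 in co-cultured null MEFs and 11.97 to 12.24 in null MEFs alone, with 1 of 8 tested markers higher and 0 lower (median -0.03), and 16.18 to 16.38 in co-cultured WT MEFs and 10.20 to 10.36 in WT MEFs alone, with 3 of 8 higher and 2 lower (median 0.27). For the macrophage list it was 10.88 to 11.03 in co-cultured null MEFs and 9.43 to 9.47 in null MEFs alone, and 12.20 to 12.33 in co-cultured WT MEFs and 10.11 to 10.15 in WT MEFs alone, with 1 of 6 markers higher and 0 lower in each. For the striated muscle list it was 11.99 to 12.43 and 11.75 to 11.90 in the same null groups, and 13.65 to 13.75 and 12.32 to 12.85 in the same WT groups, with 1 of 5 tested markers higher and 0 lower in each. The epithelial markers Epcam and Cdh1 were not well above background in any of the 3 D2A1 groups, and the endothelial genes Cdh5, Tek and Tie1 were not in any group.

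The ribosomal protein mRNAs varied over a narrower range across the 7 groups than most genes on the array. The range of a member's 7 group means had a median of 0.41 (quartiles 0.31 and 0.59), against 0.83 over all tested genes, and 5 members (6.41%) ranged over more than 1 log2 unit, against 10371 of the 25896 tested genes. The SD between replicates had a median of 0.109 for the members and 0.156 for all tested genes. The widest ranges were those of Rpl39l (5.31), Rpl23 (1.42), Rpl38 (1.39), Rpl22 (1.20) and Rps15 (1.07). The narrowest was that of Rplp1 (0.11), a protein of the stalk that recruits elongation factors. The other lists of the translation machinery ranged more widely, with medians of 0.60 for 14 translation factors, 0.72 for 75 mitochondrial ribosomal proteins and 1.26 for 43 ribosome biogenesis genes. The members also lay far higher in signal than most genes. On the 14 arrays their median was between 16.97 and 17.45, against 8.24 to 8.39 for all tested genes. Of the members, 53 had more than 1 probe and 27 had 1. Ranges were not compared with those of genes of similar level or probe number. The part of level and probe number in the narrower range, and in the shares of genes that passed below, was not tested. Levels of different genes come from different probes and were not ranked. Among the members with high values, Rpl41 lay between 18.39 and 18.68 on the 14 arrays and Rps10 between 17.92 and 18.74. Rpl3l lay between 5.09 and 5.56 and Rpl10l between 4.90 and 5.42, and no array of a sound scanner file had either well above background.

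**Figure D1:**
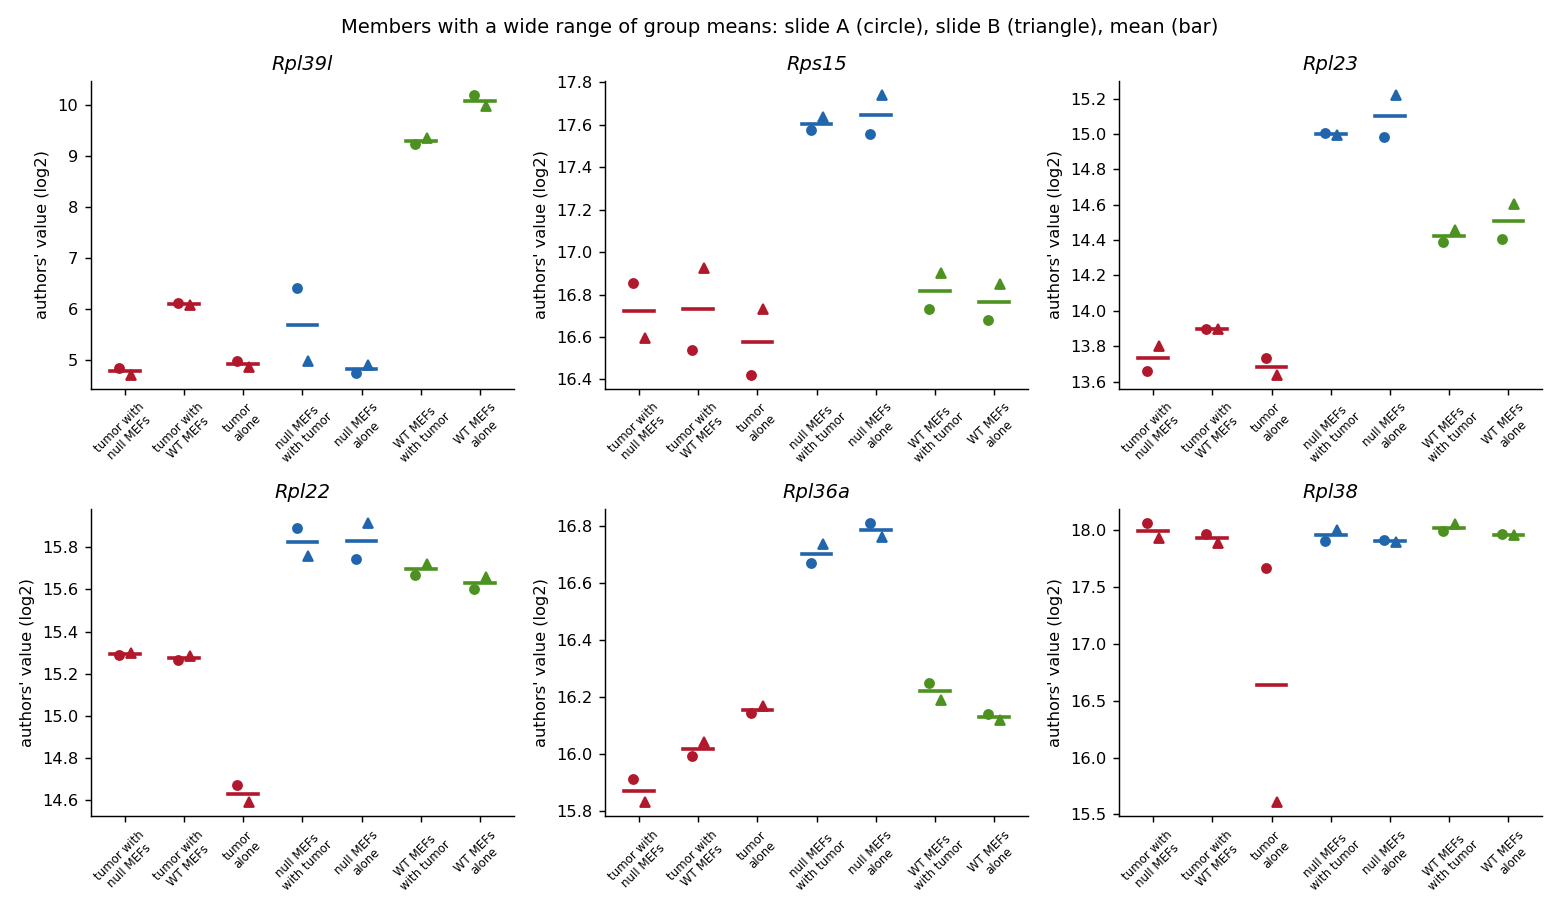
The authors' log2 value (y axis, a different range in each panel) of 6 ribosomal protein genes in the 7 groups (x axis), with slide A as a circle, slide B as a triangle and the group mean as a bar. Rpl39l stands between 9.25 and 10.20 on the 4 WT MEF arrays and at 6.42 or lower elsewhere, Rps15, Rpl23 and Rpl36a are higher on all 4 null than on all 4 WT MEF arrays, and Rpl38 departs on a single array, tumor cells alone B.

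Null MEFs and WT MEFs grown alone differed in 11 ribosomal protein genes, of which 10 were higher and 1 lower in null MEFs. This was 14.1% of the members, below the 33.8% of all tested genes that passed in the same comparison (17.9% higher and 15.9% lower). The small subunit had 6 of 31 members higher and 0 lower, and the large subunit 4 of 47 higher and 1 lower. Among all tested members, 64 of 78 had a positive difference, and their median was 0.12, against 0.03 over all tested genes.

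Rpl39l was the one that fell. It was at 4.76 and 4.91 in null MEFs alone, against 10.20 and 9.98 in WT MEFs alone. Null MEFs were not well above background on either array, so the fold is a bound: the transcript was at least 38.2-fold lower in null MEFs (log2 difference -5.26 ± 0.34, adjusted p = 8.76e-07). The bound allows for background alone, and the scatter between arrays is given by the SE. The parent gene Rpl39, measured by other probes, was at 14.98 and 14.81 in null MEFs alone, against 14.64 and 14.47 in WT MEFs alone (0.34 ± 0.14, adjusted p = 0.0817), which did not pass.

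Rps15, a small-subunit protein needed for export of the subunit precursor from the nucleus, had the largest rise. It was at 17.56 and 17.74 in null MEFs alone and at 16.68 and 16.85 in WT MEFs alone, which is 0.88 ± 0.16 higher (1.85-fold, adjusted p = 0.00164). The null arrays lay above the WT arrays without overlap. On the arrays with sound scanner files both Rps15 probes pointed the same way, by 1.13 and 0.70 on the scale of each array's 75th percentile. Rpl36a, an X-linked large-subunit gene, was at 16.81 and 16.76 in null MEFs alone, against 16.14 and 16.12 in WT MEFs alone (0.66 ± 0.09, 1.58-fold, adjusted p = 2.00e-04). All 3 of its probes were higher in null MEFs, by 0.43 to 0.76.

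Rpl23, a large-subunit protein that can bind Mdm2, was at 14.98 and 15.22 in null MEFs alone, against 14.41 and 14.61 in WT MEFs alone (0.60 ± 0.12, adjusted p = 0.00218). The groups did not overlap. Its probes disagreed: A_51_P108190 differed by 0.72, while A_55_P1961235 and A_55_P2029344 differed by 0.03 and 0.02. Rpl35a, a large-subunit gene mutated in some families with Diamond-Blackfan anaemia, was at 17.01 and 16.90 in null MEFs alone and at 16.40 and 16.33 in WT MEFs alone (0.59 ± 0.11, adjusted p = 0.00126), with no overlap. Rps4x, the X-linked small-subunit gene, was at 17.35 and 17.37 in null MEFs alone and at 16.87 and 16.88 in WT MEFs alone (0.49 ± 0.10, adjusted p = 0.00289). Its arrays of a group nearly coincided, and the groups stood apart. Because the annotation puts its single probe on another chromosome, the X-linked gene and a copy elsewhere cannot be told apart.

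The other 5 members that rose in null MEFs alone were small-subunit Rps15a (0.44 ± 0.13), Rps27a (0.41 ± 0.11), whose product is made fused to ubiquitin, Rps13 (0.41 ± 0.12) and Rps6 (0.33 ± 0.11), the substrate of S6 kinase, and large-subunit Rpl26 (0.32 ± 0.10). Their adjusted p lay between 0.0139 and 0.0355 (limma). On the sound scanner arrays the probes of Rps27a and Rps15a were all higher but differed in size, from 0.33 to 1.03 and from 0.37 to 1.41. These 5 did not hold whenever any array was dropped: leaving out WT MEFs alone A gave adjusted p = 0.156 for Rps15a, 0.0714 for Rps27a, 0.102 for Rps13, 0.158 for Rps6 and 0.139 for Rpl26, and leaving out WT MEFs alone B gave 0.0612, 0.0582, 0.0816, 0.0941 and 0.0775 in the same order. Leaving out null MEFs alone A ended the call of 4 of them (0.0548 for Rps15a, 0.0969 for Rps27a, 0.187 for Rps6 and 0.0836 for Rpl26), and leaving out null MEFs alone B also ended 4 (0.163 for Rps15a, 0.186 for Rps13, 0.0674 for Rps6 and 0.129 for Rpl26). The call of Rps6 was also lost without co-cultured WT MEFs A or B, a group outside the comparison (adjusted p = 0.0573 each). The calls of Rpl39l, Rps15, Rpl36a, Rpl23, Rpl35a and Rps4x held with any 1 of the 14 arrays left out. On the 12 sound scanner arrays scaled at the 75th percentile, Rpl39l was the 1 member that passed, and after normexp and quantiles 9 were higher and 1 lower.

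The difference between null and WT MEFs was seen again in the MEFs sorted from co-culture, which are other arrays. The labels do not say how many MEF isolates stood for each genotype or whether both settings used the same ones. Genotype and a difference between cell stocks therefore cannot be told apart, here or in any other comparison of null with WT MEFs. There, 8 members passed, 6 higher and 2 lower in null MEFs, against 29.5% of all tested genes (14.7% higher and 14.8% lower), and the median over members was 0.05, against 0.00 over all. Rps15 was at 17.57 and 17.64 in co-cultured null MEFs, against 16.73 and 16.90 in co-cultured WT MEFs (0.79 ± 0.16, adjusted p = 0.00407). Rpl36a was at 16.67 and 16.74 in co-cultured null MEFs, against 16.25 and 16.19 in co-cultured WT MEFs (0.48 ± 0.09, adjusted p = 0.00206). In both genes the null arrays were above the WT arrays. Rpl23 differed by 0.58 ± 0.12 (adjusted p = 0.00314), Rps4x by 0.49 ± 0.10 (0.00315) and Rpl35a by 0.37 ± 0.11 (0.0236). Rpl23a, which sits near the exit of the peptide tunnel, differed by 0.32 ± 0.11 (0.0403), and Rpl15 by -0.29 ± 0.09 (0.0429).

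Rpl39l was again far lower, at 6.42 and 4.98 in co-cultured null MEFs, against 9.25 and 9.35 in co-cultured WT MEFs (-3.60 ± 0.34, adjusted p = 2.15e-05). The 2 null arrays differed from each other by more than those of any other group, and only array A was well above background. The calls of Rps15, Rpl36a, Rpl23, Rps4x and Rpl39l held with any 1 array left out, while adjusted p reached 0.155 for Rpl35a, 0.163 for Rpl23a and 0.195 for Rpl15. For Rpl35a the call was lost without co-cultured WT MEFs A or B or co-cultured null MEFs A, for Rpl23a without any 1 of the 8 MEF arrays, and for Rpl15 without any 1 of 9 arrays. Between co-cultured null and WT MEFs, 2 of 8 epithelial markers were higher and 3 lower, and 1 of 6 macrophage markers was higher and 2 lower. Their part in these differences was not tested.

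The 6 genes Rpl23, Rpl35a, Rpl36a, Rpl39l, Rps15 and Rps4x passed in both settings, out of the 11 called alone and the 8 called in co-culture. The overlap between the 2 settings was not counted over all tested genes, so it is not read as a trait of the members. Of the 78 members, 61 (78.2%) had the same sign in both, near the 77.7% of all tested genes. Across the members the 2 sets of differences correlated with r = 0.94 (78 genes), and with r = 0.68 when Rpl39l was left out (77 genes), against r = 0.87 over all tested genes. These are correlations across genes, which are not independent replicates.

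**Figure D2:**
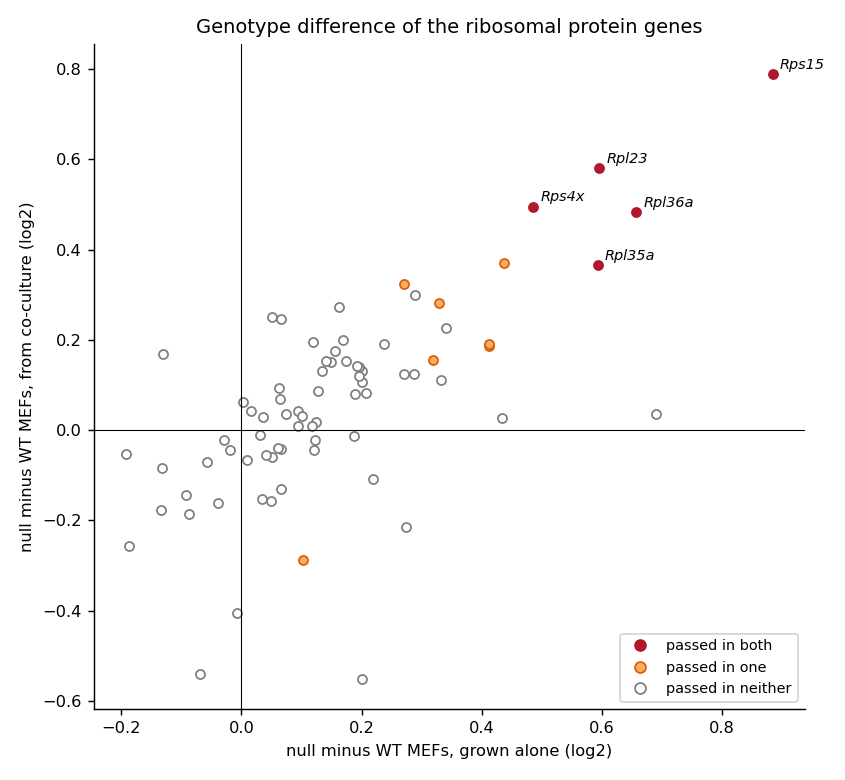
Each point is a ribosomal protein gene, with the log2 difference between null and WT MEFs grown alone on the x axis and the same difference in MEFs sorted from co-culture on the y axis. Rpl39l, at -5.26 and -3.60, is outside the plot. Rps15, Rpl23, Rpl36a, Rpl35a and Rps4x, the filled red points, lie to the upper right.

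**Figure D3:**
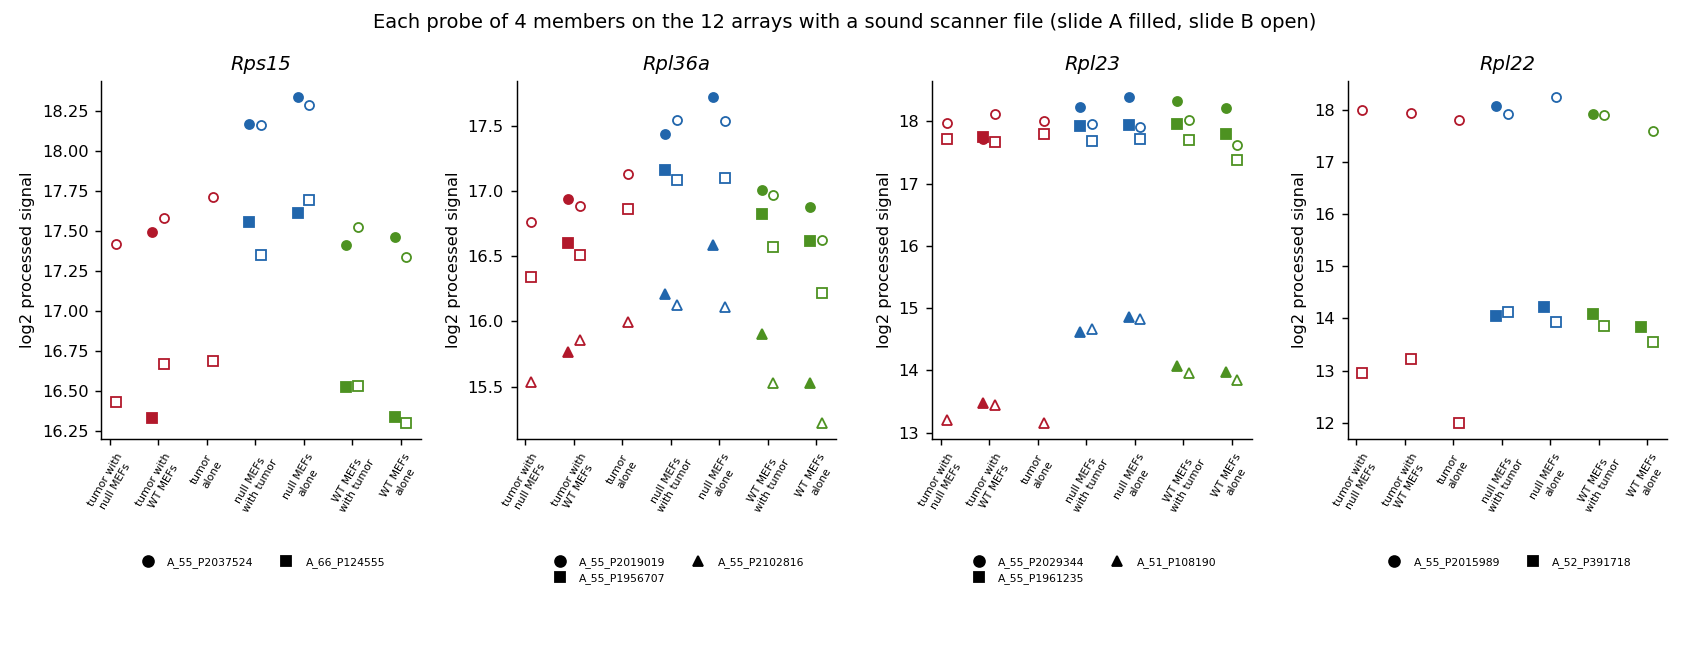
Log2 processed signal of each probe (y axis) of Rps15, Rpl36a, Rpl23 and Rpl22 in the 7 groups (x axis) on the 12 sound scanner arrays, slide A filled and slide B open, with outlier spots left out and no scaling between arrays. Both Rps15 probes are high in null MEFs, and in Rpl23 and Rpl22 the probe with the lower signal differs most between groups.

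No ribosomal protein gene passed the threshold in MEFs cultured with tumor cells. In WT MEFs 0 of 78 members passed by limma, against 10.5% of all tested genes (6.31% higher and 4.2% lower), with 3 members at an unadjusted p under 0.05. In null MEFs 0 of 78 passed, against 3.14% of all tested genes (2.81% higher and 0.332% lower), again with 3 at an unadjusted p under 0.05. With single arrays left out, each of these counts lay between 0 and 1. The 1 call in WT MEFs came without co-cultured null MEFs A or B, and the 1 call in null MEFs came without those same arrays. The intervals limit what a change could have been: the 95% interval of the difference lay within 0.5 log2 units of 0 for 63 members in WT MEFs and 65 in null MEFs, and within 1 log2 unit for 75 and 74. The members with wider intervals were Rpl38, Rpl39l and Rps21 in both, and Rps9 in null MEFs. The median over members was 0.00 in WT MEFs, where that of all tested genes was -0.04. In null MEFs it was -0.07, against -0.04, and 63 of 78 members had a negative difference.

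The members nearest to passing were Rpl15 in WT MEFs, and Rpl39l in each genotype. Rpl15 was at 15.51 and 15.51 in co-cultured WT MEFs, against 15.19 and 15.23 in WT MEFs alone (0.30 ± 0.09, adjusted p = 0.0756). Rpl39l was at 9.25 and 9.35 in co-cultured WT MEFs, against 10.20 and 9.98 in WT MEFs alone (-0.79 ± 0.34, adjusted p = 0.186). In null MEFs it was at 6.42 and 4.98 in co-culture, against 4.76 and 4.91 alone (adjusted p = 0.337), with only co-cultured array A apart and well above background. The test of whether the response to tumor cells differed between null and WT MEFs called 0 of 78 members by limma, against 3.03% of all tested genes (1.07% higher and 1.96% lower), with 3 members at an unadjusted p under 0.05 and counts of 0 to 2 with single arrays left out. Rpl39l was one of the 3 (adjusted p = 0.119), with no size given because null MEFs alone and one co-cultured null array were not well above background. The 2 calls came without co-cultured null MEFs A and the count was 1 without co-cultured null MEFs B.

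In D2A1 tumor cells sorted from culture with either partner, Rpl22 was higher than in tumor cells alone, and few other members passed. Tumor cells cultured with null MEFs had 1 member higher and 5 lower than tumor cells alone, against 19.7% of all tested genes (10.1% higher and 9.6% lower). Tumor cells cultured with WT MEFs had 2 higher and 0 lower, against 11.8% of all tested genes (7.04% higher and 4.77% lower). Both comparisons use the same tumor cells alone. With the array median subtracted, the second count was 1 higher and 3 lower, and after normexp and quantiles on the sound scanner arrays the first was 3 higher and 0 lower. The member medians, -0.09 and -0.04, equalled those of all tested genes at 2 decimals.

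Rpl22, a large-subunit protein that also binds the mRNA of its relative Rpl22l1 in mice, was at 15.29 and 15.30 in tumor cells with null MEFs, against 14.67 and 14.59 in tumor cells alone (0.66 ± 0.10, adjusted p = 0.00109). In tumor cells with WT MEFs it was at 15.26 and 15.29 (0.64 ± 0.10 against tumor cells alone, adjusted p = 0.00211). All 4 co-cultured tumor arrays lay above both arrays of tumor cells alone, and both calls held with any 1 array left out. The 2 probes differed in size: against tumor cells alone, on the 12 sound arrays A_52_P391718 differed by 0.89 with null MEFs and 1.12 with WT MEFs, and A_55_P2015989 by 0.11 and 0.02, and neither passed alone. On those arrays tumor cells with null MEFs and tumor cells alone hold 1 array each, which is assumed to vary like the other groups. In the value table Rpl22 averaged 15.83 in co-cultured null MEFs and 15.69 in co-cultured WT MEFs, above every group of tumor cells. Against tumor cells alone, 5 of 11 fibroblast markers were higher with null MEFs and 11 with WT MEFs, and 0 were lower in each. The part of carried-over fibroblast RNA in the Rpl22 difference was not tested. Rpl22l1, the relative, was at a mean of 15.67 in tumor cells with null MEFs, 15.50 with WT MEFs and 15.40 alone, and neither difference passed (adjusted p = 0.116 and 0.643).

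Those that fell with null MEFs included Rpl21 (-0.54 ± 0.11, adjusted p = 0.00766), Rps25 (-0.52 ± 0.15, 0.0388), a small-subunit protein used by some viral internal ribosome entry sites, Rpl30 (-0.48 ± 0.09, 0.00435) and Rpl36a (-0.28 ± 0.09, 0.0484). Rpl21 was at 8.96 and 8.90 in tumor cells with null MEFs, against 9.42 and 9.51 in tumor cells alone. Rpl30 was at 15.65 and 15.65 in tumor cells with null MEFs, against 16.15 and 16.11 in tumor cells alone. In both genes the groups stood apart, and both calls held with any 1 array left out. The calls of Rps25 and Rpl36a did not hold throughout: adjusted p reached 0.218 for Rps25 (without tumor cells with null MEFs B) and 0.203 for Rpl36a. The call was lost in 5 of 14 such fits for Rps25 and in 12 for Rpl36a.

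Rpl39l in tumor cells differed with the partner. It was at 4.85 and 4.72 in tumor cells with null MEFs, 6.12 and 6.08 in tumor cells with WT MEFs, and 4.99 and 4.86 in tumor cells alone. Only tumor cells with WT MEFs were well above background. The folds that follow are bounds that allow for background alone and not for the scatter between arrays. The transcript was at least 2.26-fold higher in tumor cells with WT MEFs than in tumor cells alone (adjusted p = 0.0484, limma). It was at least 2.46-fold lower in tumor cells with null MEFs than in tumor cells with WT MEFs (-1.32 ± 0.34, adjusted p = 0.0350). With 1 of the 14 arrays left out at a time the first was lost in 12 fits (adjusted p between 0.000237 and 0.157) and the second in 10 (between 0.000108 and 0.135), and they held in common only without co-cultured null MEFs A or B, the group whose own 2 arrays differed most. All 11 markers of the fibroblast list were higher in tumor cells with WT MEFs than in tumor cells alone, and 5 of 11 in tumor cells with null MEFs. The summed log2 level of the list was 18.02 to 18.45 in tumor cells with null MEFs, 18.63 to 18.69 in tumor cells with WT MEFs and 17.81 to 18.003 in tumor cells alone, and Lum was not well above background in any of these 3 groups. The Rpl39l level of tumor cells with WT MEFs, less that of tumor cells alone, was 6.24% (slide A) and 5.90% (slide B) of the level in co-cultured WT MEFs. The same quantity had a median of 11.3% and 9.55% over the 11 fibroblast markers, which ranged from 4.71% to 40.2% and from 4.88% to 39.2%. With null MEFs as partner, Rpl39l gave -3.43% and -8.84% of the level in co-cultured null MEFs. The markers there had medians of 2.45% and 9.49%, ranging from -17.9% to 17.5% and from -83.0% to 67.9%. The profiled co-cultured MEFs have no mitomycin C listed, while the partners of the profiled tumor cells had received it. The part of carried-over fibroblast RNA in this result was not tested.

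Between the partners, tumor cells with null MEFs had 0 members higher and 3 lower than tumor cells with WT MEFs, against 9.49% of all tested genes (5.38% higher and 4.11% lower). Besides Rpl39l these were Rpl21 and Rpl24. Rpl21 was at 8.96 and 8.90 with null MEFs, against 9.45 and 9.24 with WT MEFs (-0.41 ± 0.11, adjusted p = 0.0440). Rpl24, the large-subunit gene altered in the mouse mutant Belly spot and tail, was at 17.31 and 17.24 with null MEFs, against 17.77 and 17.58 with WT MEFs (-0.40 ± 0.11, adjusted p = 0.0467). The arrays of the partners did not overlap in either gene. Each call was lost in 12 of the 14 fits with 1 array left out (adjusted p up to 0.219 for Rpl21 and 0.222 for Rpl24). None of the 3 calls held without the 2 arrays with faulty scanner files, or in either fit to the scanner values at their 75th percentile. Without those arrays tumor cells with null MEFs are 1 array, and the other groups supply the spread.

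**Figure D4:**
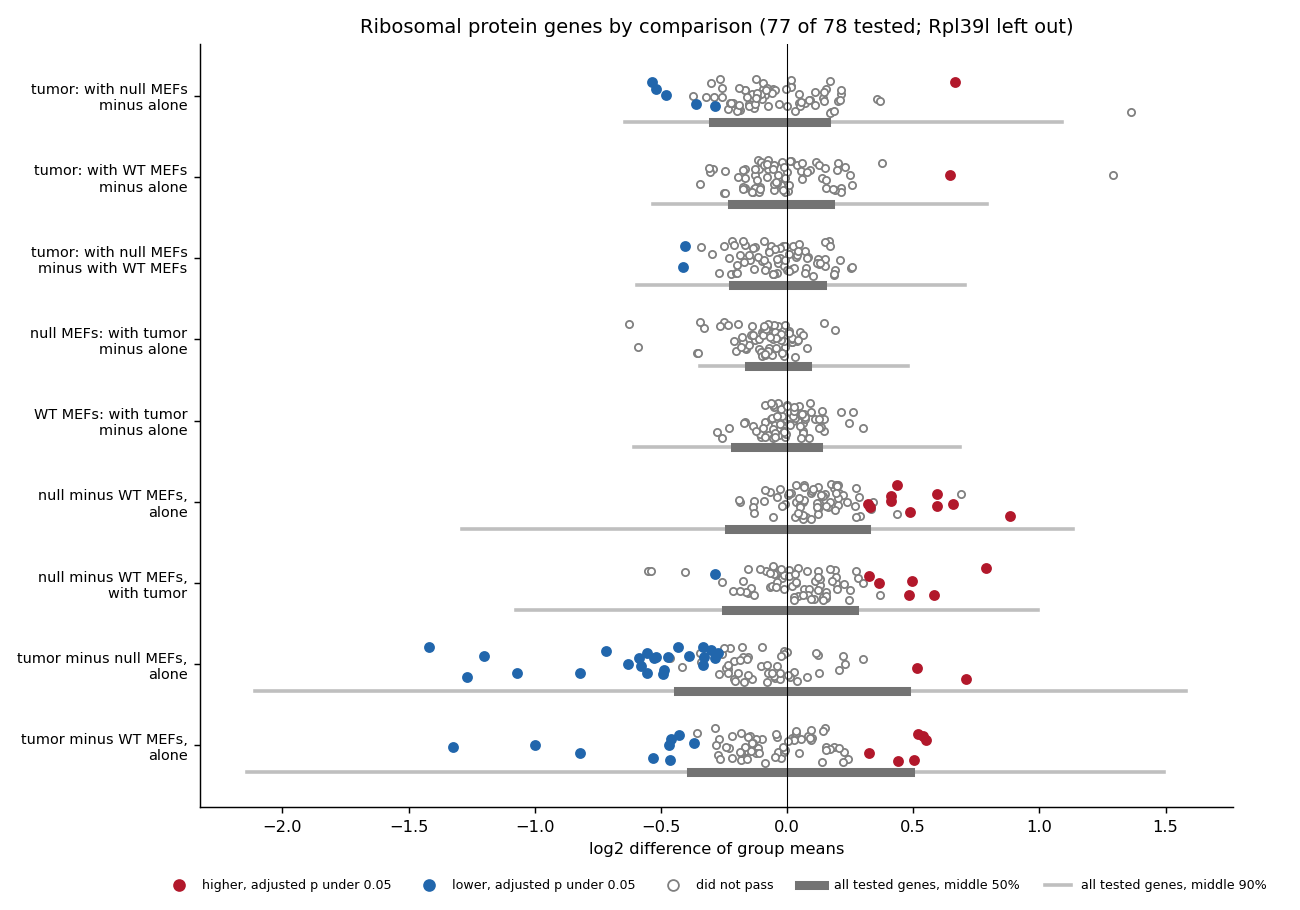
Log2 difference (x axis) of 77 ribosomal protein genes in 9 comparisons (y axis), with red and blue points for members that passed higher or lower and open points for the rest, above bars for the middle 50% (dark) and 90% (light) of all tested genes. Rpl39l is left out for scale. The members cluster more tightly around 0 than all tested genes, and the blue points gather in tumor cells minus null MEFs.

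Tumor cells and MEFs grown alone differed in more members. Against null MEFs alone, tumor cells had 2 members higher and 24 lower, where 52.6% of all tested genes passed (27.3% higher and 25.4% lower). Against WT MEFs alone they had 6 higher and 10 lower, where 51.4% passed (27.8% higher and 23.6% lower). The split moved with the scaling: with the array median subtracted it was 4 higher and 13 lower against null MEFs and 8 higher and 7 lower against WT MEFs, and after normexp and quantiles 0 higher and 15 lower, and 0 higher and 11 lower. Both comparisons use the same tumor cells alone. The member medians were -0.20 and -0.07, against 0.07 and 0.08 over all tested genes. Centring each array on its median moved the medians of all tested genes by about 0.11, to 0.18 and 0.19, and those of the members to -0.08 and 0.04, so the sign of the second turns with the scaling and the members stayed below all genes in both.

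Against null MEFs, the lowest were Rpl23 (-1.42 ± 0.12), Rpl38 (-1.27 ± 0.46), Rpl22 (-1.20 ± 0.10), Rps15 (-1.07 ± 0.16), Rpl35a (-0.82 ± 0.11) and Rpl27a (-0.72 ± 0.16). Rpl30 was higher (0.71 ± 0.09). Against WT MEFs, the 6 lowest were Rpl39l (at least 35.8-fold lower in tumor cells, adjusted p = 4.32e-07), Rpl38 (-1.32 ± 0.46), Rpl22 (-1.0 ± 0.10), Rpl23 (-0.82 ± 0.12), Rpl13a (-0.53 ± 0.11), which has a second role in silencing mRNAs in human monocytes, and Rps19 (-0.47 ± 0.13), another Diamond-Blackfan gene. Those higher included Rps27a (0.54 ± 0.11), Rpl30 (0.52 ± 0.09), Rps25 (0.50 ± 0.15), Rps15a (0.44 ± 0.13) and Rpl15 (0.32 ± 0.09). In Rps27a and Rps15a the dimmest probe differed most on the sound scanner arrays. For Rps27a it gave 1.45, and the brighter probes 0.34 and 0.33. For Rps15a it gave 2.31, and the brighter probes 0.16 and 0.18. Rpl23 was at 13.73 and 13.64 in tumor cells alone, against 14.98 and 15.22 in null MEFs alone and 14.41 and 14.61 in WT MEFs alone. The tumor arrays were below every MEF array. The Rpl23 probes disagreed on the sound scanner arrays: A_51_P108190 differed by -1.62 from null MEFs and -0.90 from WT MEFs. The brighter probes hardly differed, A_55_P1961235 by 0.03 and 0.07 and A_55_P2029344 by -0.07 and -0.05. Rpl22 was at 14.67 and 14.59 in tumor cells alone, against 15.74 and 15.92 in null MEFs and 15.60 and 15.66 in WT MEFs, again with no overlap. The 2 Rpl22 probes disagreed against WT MEFs, one at -1.84 and the other at 0.10. The higher level of Rpl30 in tumor cells turned on the 12 sound scanner arrays scaled at the 75th percentile, to -0.04 against null MEFs and -0.11 against WT MEFs, where tumor cells alone are 1 array. Fitted probe by probe on the same arrays, each of its 3 probes was higher in tumor cells, by 0.39 to 1.71 against null MEFs and 0.38 to 1.36 against WT MEFs, and none passed.

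Rpl38, which is needed for translation of some Hox mRNAs in mouse embryos, rested on 1 array. It was at 17.66 and 15.61 in tumor cells alone, against 17.91 and 17.89 in null MEFs alone and 17.96 and 17.95 in WT MEFs alone. Every other array of the series lay between 17.66 and 18.07. On array B of tumor cells alone one of its 2 probes carried an outlier flag, and the other gave a difference of 0.07 from null MEFs and 0.10 from WT MEFs. Without that array the difference was -0.24 from null MEFs (adjusted p = 0.127) and -0.30 from WT MEFs (adjusted p = 0.0679). Against co-cultured tumor cells the same array gave differences of 1.36 ± 0.46 with null MEFs and 1.29 ± 0.46 with WT MEFs, which did not pass (adjusted p = 0.0647 and 0.104).

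In the comparison with null MEFs 12 of 25 calls followed singly held with any 1 array left out, and in that with WT MEFs 6 of 15. Of the members named above, Rpl23, Rpl22 and Rpl30 kept both calls, and Rps15, Rpl35a and Rpl27a kept theirs against null MEFs. Rpl39l, Rpl13a and Rps27a kept theirs against WT MEFs. Adjusted p against WT MEFs reached 0.0585 for Rps19, 0.124 for Rps25, 0.127 for Rps15a and 0.0744 for Rpl15.

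The members with restricted or X-linked relatives were followed in every group. Rpl3 and Rpl10 passed in none of the 10 comparisons, and neither did Rpl39 or Rps27l, a relative of Rps27 known as a p53 target. Rpl3 had group means within 0.26 of each other, Rpl10 within 0.25, Rpl39 within 0.34 and Rps27l within 0.41. Rps27 passed once, in tumor cells against null MEFs alone (-0.30 ± 0.09, adjusted p = 0.0196), a call that was lost in 4 of 14 fits with 1 array left out. Its 4 probes are placed on chromosome 9 by the annotation, while RefSeq has the gene on chromosome 3. In all, 11 probes of 6 members were placed on another chromosome than the RefSeq gene, including every probe of Rps27, Rps29 and Rps4x, and for these the gene and a copy elsewhere cannot be told apart. Of the X-linked members Rpl10, Rpl36a, Rpl39 and Rps4x, Rpl36a and Rps4x were higher in null than in WT MEFs in both settings, and Rpl10 and Rpl39 did not pass in either.

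The genes with the most similar profiles over the 7 group means were, for Rpl39l, Cyp7b1, Maob and Gdf10 (Pearson r = 0.999 each). For Rpl23 they were Gm13570, Alg2 and E130309D14Rik (r between 0.998 and 0.999). For Rpl38 they were LOC100048237, Hp1bp3 and LOC677636 (0.991, 0.987 and 0.972). These are the extremes of 25896 genes over only 7 points and describe shape alone.

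Genes that build ribosomes had medians farther from 0, in either direction, than the ribosomal proteins in most comparisons, a difference that was not tested. The list counts below stand beside shares of all tested genes of 33.8% (null against WT MEFs alone), 29.5% (in co-culture), 19.7% and 11.8% (tumor cells with null and with WT MEFs against alone), and 52.6% and 51.4% (tumor cells against null and WT MEFs). Of 43 ribosome biogenesis genes, which act largely in the nucleolus, 27 were higher and 2 lower in null than in WT MEFs alone (median 0.41), and 16 were higher and 0 lower in co-cultured MEFs (median 0.32). Brix1, a factor for large-subunit assembly, averaged 13.38 in null MEFs alone and 11.90 in WT MEFs alone (1.49 ± 0.12, adjusted p = 4.01e-06), and Dkc1, the pseudouridine synthase of the nucleolus, averaged 11.01 in null MEFs alone and 9.39 in WT MEFs alone (1.62 ± 0.15, adjusted p = 1.17e-05). In tumor cells 17 were lower and 0 higher with null MEFs than alone, and 16 were lower and 0 higher with WT MEFs (medians -0.37 and -0.37). Ddx21, a nucleolar helicase, fell by 0.73 with null MEFs (adjusted p = 0.00132) and by 0.71 with WT MEFs (adjusted p = 0.00243). Tumor cells alone had 29 higher and 2 lower than null MEFs (median 0.67), and 38 higher and 1 lower than WT MEFs (median 1.18), where the ribosomal proteins had medians of -0.20 and -0.07. Neither MEF genotype changed any of the 43 past the threshold in co-culture by limma. Of all tested genes, 3.14% passed in null MEFs and 10.5% in WT MEFs. An unadjusted p under 0.05 was reached by 5 of the 43 in null MEFs and 6 in WT MEFs. Over all 25896 tested genes it was reached by 2846 and 5993 in the same order.

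Of 14 translation factors listed for their TOP mRNAs, 6 were higher and 0 lower in null than in WT MEFs alone (median 0.30), among them Eef2, the elongation factor that moves the ribosome along (0.58 ± 0.13, adjusted p = 0.00633), and Eif4b (0.84 ± 0.12, adjusted p = 2.69e-04). In co-culture 3 were higher and 0 lower. Of 75 mitochondrial ribosomal proteins, 28 were higher and 4 lower in null MEFs alone (median 0.26), and 5 higher and 8 lower in co-culture (median 0.04), where 29.5% of all tested genes passed. Of 17 regulators, 3 were higher and 2 lower in null MEFs alone, where 33.8% of all tested genes passed. Myc, which drives ribosomal protein and rRNA genes, averaged 13.93 in null MEFs alone and 11.50 in WT MEFs alone (2.43 ± 0.26, adjusted p = 3.05e-05), and 13.72 in co-cultured null MEFs and 11.33 in co-cultured WT MEFs (2.39 ± 0.26, adjusted p = 5.45e-05). Eif4ebp1, the brake on cap binding that mTOR releases, was lower in null MEFs by -1.36 ± 0.12 alone (adjusted p = 6.07e-06) and -0.85 ± 0.12 in co-culture (adjusted p = 2.74e-04).

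Of 6 ribosomal proteins whose symbols lie outside the naming rule, Fau and Gnb2l1 passed in no comparison. The relatives Rpl22l1 and Rpl36al ran opposite to most members: Rpl22l1 was lower in null than in WT MEFs by -0.42 ± 0.11 alone and -0.37 ± 0.11 in co-culture (adjusted p = 0.0143 and 0.0297), and Rpl36al by -0.44 ± 0.15 and -0.49 ± 0.15 (0.0411 and 0.0293). Rpl36al and Rpl36a thus passed in opposite directions in the same MEFs. Rpl7l1, a relative of Rpl7, was higher in tumor cells than in null MEFs (1.06 ± 0.21, adjusted p = 0.00174) and than in WT MEFs (1.5 ± 0.21, adjusted p = 1.65e-04).

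**Figure D5:**
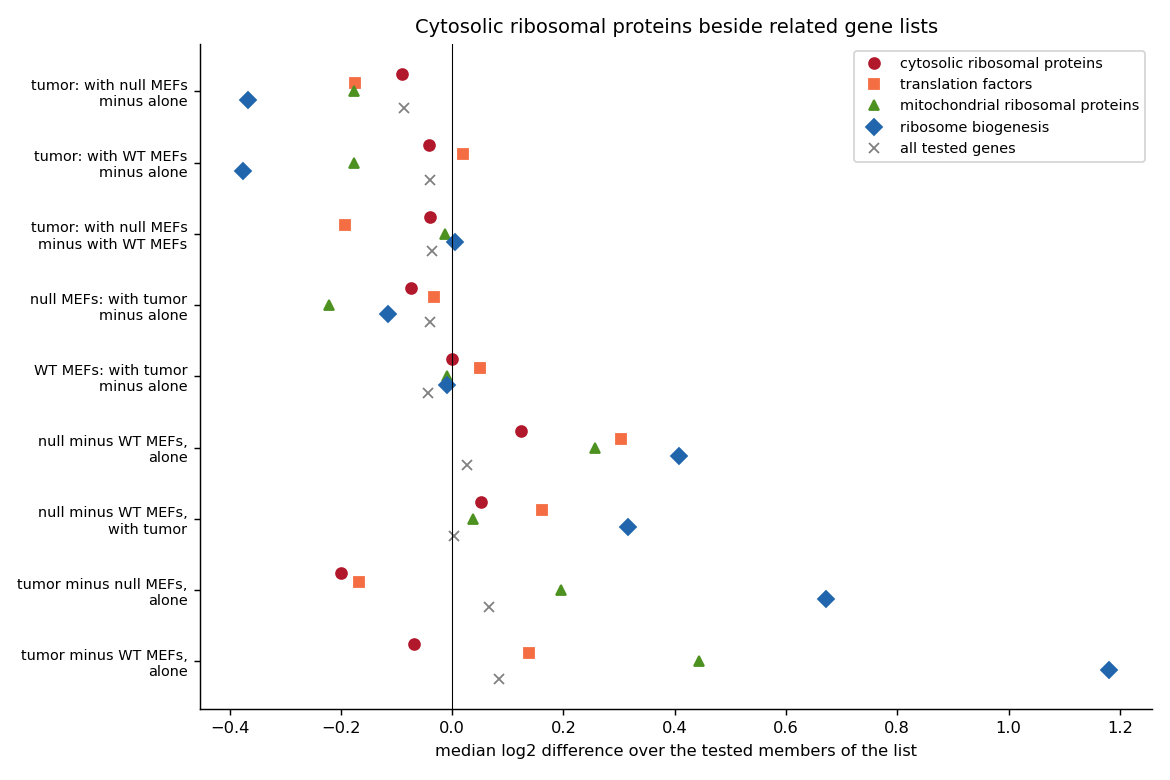
Median log2 difference (x axis) over the tested genes of each list in 9 comparisons (y axis): cytosolic ribosomal proteins, translation factors, mitochondrial ribosomal proteins, ribosome biogenesis genes and, as crosses, all tested genes. Biogenesis medians run between -0.37 and 1.18, and those of the cytosolic ribosomal proteins between -0.20 and 0.12.

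RefSeq promoter windows (GRCm38.p6) were found for 59 of the 80 members. A C followed by at least 4 C or T, beginning within 10 bases of the annotated start on the gene's strand, was present in 37 of these (62.7%), against 34.4% of the 27025 genes with a window. A match describes letters in the window and not a site in use.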

How the data were processed

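Total RNA of 14 samples, 2 in each of 7 groups, was measured on 1-colour arrays. The deposited log2 values, 1 per gene name and array, were made by the authors, and their scaling is not given in the sources used here. Array medians lay between 6.33 and 6.40, the lowest correlation between 2 arrays was 0.913, and whether the values were centred stays unknown. The scanner files hold spot intensity values, background-subtracted per the file headers by Agilent Feature Extraction 10.1.1.1, while the submitters' processing notes name 9.1. Value-table entries were matched to genes through the scanner files' probe names. A gene was tested if one of its probes was well above background on every usable array of at least 1 group.

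limma 3.58.1 in R 4.3.3 fitted the 7 group means to all 14 arrays (7 residual degrees of freedom), with p adjusted by Benjamini-Hochberg over 25896 genes, and 0.05 as the threshold. The script was tested on simulated data. Where a group was not well above background, a fold is a bound: the bright group's mean over the higher, per array, of the dim signal and the lowest signal well above background. Such a bound allows for background and not for the scatter between arrays, so the true fold may be smaller. The number of arrays limits the precision. The members and gene lists were chosen with earlier results of these data known.

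The text names every called member where a comparison had 10 or fewer, and otherwise the 6 highest and 6 lowest; the members with near relatives or X linkage; the 3 highest and 3 lowest by mean level; the 5 with the widest range; Hsf1; and called genes of the lists with the smallest p. A and B mark the slide; slide B deviations correlated between groups at 0.092 to 0.599 (median 0.298), not all over 0.1, so the block was an alternative. Alternatives were no filter on dim genes, the array median subtracted, a replicate block, each array left out, the arrays of one cell type only, and the scanner intensities scaled at the 75th percentile or by normexp (offset 50) and quantiles. A fit without the 2 faulty scanner arrays and the brightest probe of each gene were chosen after seeing the data. RefSeq tables were of GRCm38.p6. The results of some genes that this rule selects are not reported here, though counts over the members include them.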

Additional observations from a re-analysis of the deposited data

Results flagged for a closer look

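The direct test between tumor cells with null MEFs and tumor cells with WT MEFs, which asks whether the response to fibroblasts differed with the partner's genotype, passed for 3 ribosomal protein genes: Rpl39l (fitted at -1.32, adjusted p = 0.0350, limma, and at least 2.46-fold lower, since tumor cells with null MEFs were not well above background), Rpl21 (-0.41, adjusted p = 0.0440) and Rpl24 (-0.40, adjusted p = 0.0467). Each was lower on both arrays of tumor cells with null MEFs than on both arrays of tumor cells with WT MEFs. Such separation is nearly given once a gene has passed with 2 arrays on each side, so it adds no support. With 1 array left out at a time, the call was lost in 10 of 14 fits for Rpl39l and in 12 each for Rpl21 and Rpl24. The part of carried-over fibroblast RNA was not tested. In that comparison 9.49% of all tested genes passed.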

How the results depend on the processing

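The calls rested on the authors' value table. Of 69 calls of members, 53 held with the array median subtracted, 57 with no filter on dim genes, 52 without the 2 faulty scanner arrays, 22 with only the arrays of one cell type (7 did not), 31 on the scanner intensities after normexp and quantiles, 3 at the 75th percentile of the 12 sound arrays, 3 with the brightest probe, and 0 with all 14 scanner files. No spot was saturated, so leaving out saturated probes changed nothing. The replicate letter is also the slide, and correlations between groups of the slide deviations did not all reach 0.1, so the block was an alternative. All 72 calls had one sign within each slide, which is nearly given for genes that passed with 2 arrays per group and adds no support. With the replicate block all 69 calls followed singly held. The counts became 2, 7 and 3 in tumor cells (WT partner, null partner, and between partners). Between genotypes they became 14 alone and 11 in co-culture. For tumor cells against WT and null MEFs they became 17 and 28, and they were 0 in both MEF responses and their difference. In tumor cells with WT MEFs against alone (2 calls), the count was 1 with no filter, 4 with the array median subtracted (1 higher, 3 lower), 1 after normexp, 6 without the faulty arrays (4 higher, 2 lower) and 0 in the other 3 scanner settings. In tumor cells with null MEFs against alone (6), it was 3 with no filter, 3 after normexp (all higher), 1 within the cell type and 0 in the other 3 scanner settings. Between partners (3), it was 1 with no filter, 1 within the cell type and 0 without the faulty arrays and in all 4 scanner settings. Between genotypes, the 75th percentile of 12 arrays and the brightest probe gave 1 alone and 1 in co-culture, all 14 files 0 and 0, and normexp 4 in co-culture. For tumor cells against WT MEFs the 12 arrays and the brightest probe gave 1 each and all 14 files 0, with 8 higher and 7 lower with the array median subtracted and 0 and 11 after normexp, against 6 and 10. Against null MEFs the count was 17 with the array median subtracted (4 higher, 13 lower, against 2 and 24), 15 after normexp (all lower) and 0 in the other 3 scanner settings. With single arrays left out, counts lay between 1 and 5 for tumor cells with WT MEFs, 3 and 7 with null MEFs, 0 and 3 between partners, 0 and 1 in each MEF response, 0 and 2 for their difference, 6 and 13 between genotypes alone, 5 and 9 in co-culture, 9 and 17 against WT MEFs, and 15 and 25 against null MEFs. Signs also turned for single members. With all 14 scanner files these were Rpl39l with WT MEFs (-0.094), Rpl30 with null MEFs (0.22), and, against WT MEFs, Rps27a (-1.14), Rps15a (-0.23) and Rpl15 (-3.06). With all 14 and with the 12 arrays alike they were Rpl38 (0.20 against WT, 0.22 against null MEFs), Rpl30 (-0.11 and -0.037) and Rpl23a against null MEFs (0.033), and with the 12 arrays Rpl22 against WT MEFs (0.056). After normexp Rpl30 turned (-0.40 and -0.29). With the brightest probe they were Rpl23 between co-cultured genotypes (-0.038), Rpl22 against WT MEFs (0.10), Rpl38 (0.10 and 0.071), and, against null MEFs, Rpl24 (0.016), Rpl36 (0.12) and Rpl23a (0.13). The cause was not tested. In settings without the faulty arrays, tumor cells with null MEFs and tumor cells alone hold 1 array each, and the other groups supply the spread.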

Other observations

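Rps21 was the only member whose 2 slides differed by more than 0.5 log2 units on average: it was at 14.84 and 13.52 in tumor cells with null MEFs, 15.40 and 14.36 in null MEFs alone and 14.69 and 13.68 in WT MEFs alone (slide A, then slide B), and slide A was higher in all 7 groups. Over all tested genes 709 (2.74%) differed this much. Rps9 parted within a single group, at 17.90 and 16.63 in co-cultured null MEFs.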
